A study of Homo sapiens with 2 samples.

Results

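To locate Flag-RBM47 on the transcripts of membrane pumps, the deposited HITS-CLIP clusters of 8 ATPase genes were examined. HITS-CLIP uses ultraviolet light to crosslink a protein to the RNA that it touches, and the RNA fragments that come down with the protein are sequenced. A tag is a unique sequenced fragment, and a cluster is a stretch of overlapping tags. The clusters were those whose gene symbol was ATP13A3, ATP2B1, ATP2B4, ATP2A2, ATP2C1, ATP1B1, ATP11A or ATP11B. They came to 357 of the 233546 deposited clusters, and the 8 genes were among 7712 genes with a listed cluster. The libraries were 2 replicates of a single group of MDA231-BrM2a cells, a brain metastatic, non-clonal line derived from MDA-MB-231 breast cancer cells. Wild-type RBM47 with a Flag tag was expressed in them from a promoter that doxycycline induces, and the drug was given at 1 ng/ml for 3 days. Both libraries share this transgene and treatment. Control libraries were not analysed here, so non-specific recovery at single transcripts is unknown and no conditions were compared. By autoradiogram, the paper detected no labelled RNA in empty vector cells or in cells without crosslinking.

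P-type ATPases are membrane pumps that form a phosphorylated intermediate on a conserved aspartate as they move ions, lipids or polyamines. ATP13A3 is a polyamine transporter. ATP2A2 pumps calcium into the endoplasmic reticulum, ATP2B1 and ATP2B4 pump it out of the cell, and ATP2C1 loads the Golgi with calcium and manganese. ATP11A and ATP11B are flippases that move phospholipids to the inner leaflet of a membrane. ATP1B1 is the beta subunit of the sodium pump. It is an accessory glycoprotein and has no ATPase activity of its own, so the 8 genes encode 7 P-type ATPases and 1 partner subunit.

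The table held 999047 replicate 1 tags and 3489697 replicate 2 tags, a ratio of 3.49. Replicate 1 therefore measured each gene less precisely. Every listed cluster held 1 or more tags of each replicate and 5 or more by the authors' total. That total can be smaller than the sum of the replicates, as in 30716 of the listed clusters. Levels are given as tags per 1000 tags of a replicate over all deposited clusters, and ranks as tags by the authors' total in clusters of at least 10 tags, a minimum that the study used. The mesenchymal and receptor markers VIM, CD44, EGFR and AXL each had between 3265 and 8676 tags. ESR1, PGR and CDH1 had no listed cluster, and EPCAM had 1 cluster of 11 tags.

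ATP13A3 was the most heavily tagged of the 8 genes. It had 2.26 tags per 1000 in replicate 1 and 2.45 in replicate 2, a mean of 2.36 ± 0.138 (SD, n = 2). With 10621 tags in clusters of at least 10 tags, it ranked 19th of 5600 genes. The genes next to it in rank were IL6ST with 11393 tags and RTN4 with 10666 tags above, and CTGF with 10429 and NAV3 with 9938 below. In such clusters ATP13A3 had 2.21 and 2.41 tags per 1000 in replicates 1 and 2. IL6ST, with 2.36 and 2.59, was higher in both libraries, and CTGF, with 2.07 and 2.40, and NAV3, with 2.18 and 2.25, were lower in both. RTN4 had 2.27 and 2.41 and could not be ordered against ATP13A3. With 2 libraries these small differences were not tested. ATP13A3 alone held 46.8% ± 0.716 (SD, n = 2) of the tags of the 8 genes.

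The calcium pumps covered a wide range of levels. ATP2A2 had 0.814 and 0.955 tags per 1000 in replicates 1 and 2, a mean of 0.884 ± 0.0999 (SD, n = 2). ATP2B1 had 0.820 and 0.921, a mean of 0.870 ± 0.0714. ATP2B1 was the higher of the pair in replicate 1 and ATP2A2 in replicate 2, so they could not be ordered. ATP2C1 had 0.159 and 0.140, a mean of 0.150 ± 0.0135. ATP2B4, the other plasma membrane pump of the set, had 0.0420 and 0.0373, a mean of 0.0396 ± 0.00339, far below ATP2B1 in both libraries.

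ATP1B1 had 0.585 and 0.636 tags per 1000, a mean of 0.610 ± 0.0365 (SD, n = 2). Of the flippases, ATP11B had 0.239 and 0.253, a mean of 0.246 ± 0.00956. ATP11A had 0.0340 and 0.0332, a mean of 0.0336 ± 0.000560, and was the least tagged of the 8. ATP2B4 was above it in both libraries, but on 42 replicate 1 tags against 34.

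Of the 8 genes, 7 had more than 100 tags in clusters of at least 10 tags, against 39.9% of all 7712 genes. As the 8 were chosen with their tags known, this count says nothing of pump genes in general. ATP11A, with 71 tags, was the exception, and ATP2B4 was just above the limit with 102. The count was 6 without replicate 1 and 4 without replicate 2. The limits of 10 and 100 tags were not scaled to depth, so a shallower library lowers such counts. The share of all genes was not counted for each library alone. The ranks were 91 for ATP2A2, 102 for ATP2B1, 169 for ATP1B1, 675 for ATP11B, 1481 for ATP2C1, 3039 for ATP2B4 and 3461 for ATP11A. RNA levels were not measured with these libraries, so more binding per transcript and more transcript cannot be told apart.

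Levels were then set per kb of the annotated mRNA, leaving intron clusters out, since a long mRNA offers more sequence to bind. ATP13A3 had 0.286 and 0.312 tags per 1000 per kb in replicates 1 and 2, a mean of 0.299 ± 0.0185 (SD, n = 2). ATP1B1, whose mRNA of 2216 nt is the shortest of the 8, had 0.262 and 0.285, a mean of 0.273 ± 0.0162. On this scale ATP13A3 was still above ATP1B1 within each library, by a small margin that was not tested. ATP2B1 at 0.115 ± 0.0111 and ATP2A2 at 0.105 ± 0.0123 followed, with ATP2B1 above ATP2A2 within each library. ATP11B reached 0.0306 ± 0.00199 and ATP2C1 0.0217 ± 0.000841. ATP2B4 at 0.00439 ± 0.000471 and ATP11A at 0.00370 ± 6.16e-05 were lowest. Their annotated mRNAs, of 8697 and 9086 nt, are the longest of the set, which lowers a value per kb.

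**Figure D1:**
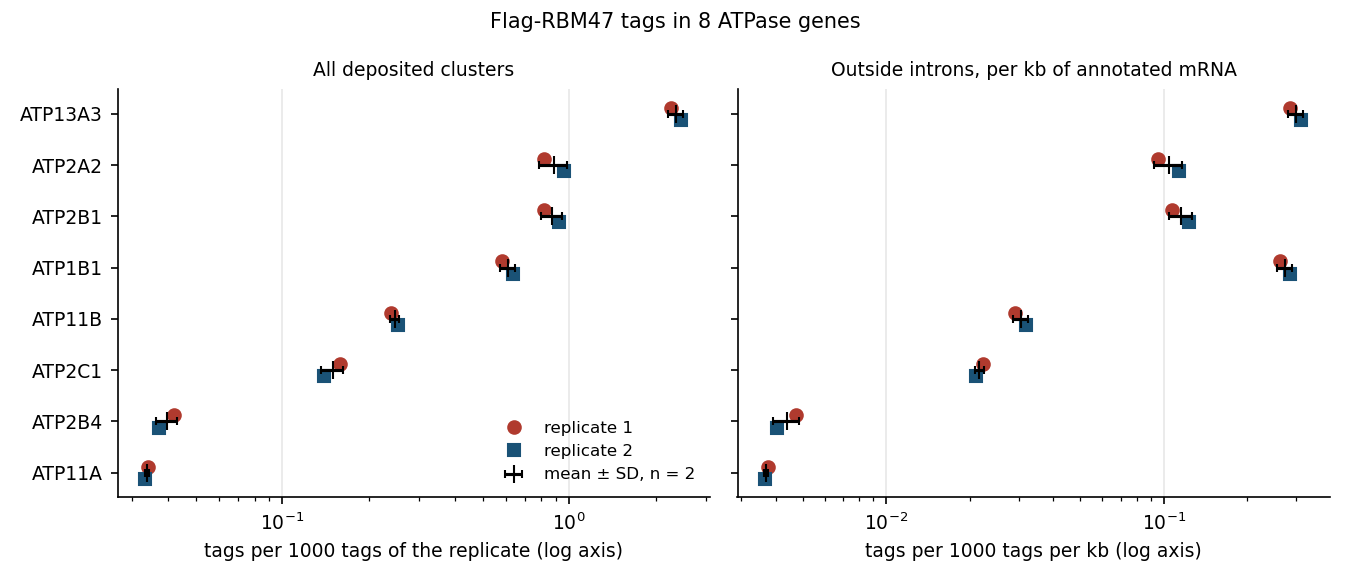
Tags of each gene per 1000 tags of a replicate over all deposited clusters (left) and, outside introns, per kb of annotated mRNA (right), both on log axes; circles are replicate 1, squares replicate 2, and bars the mean ± SD (n = 2). ATP13A3 is highest on the left at 2.36, while ATP1B1 comes close to it on the right at 0.273 against 0.299.

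The location of the tags was compared next. The 8 genes were bound mainly in mature mRNA sequence. In clusters of at least 10 tags, those labelled as 3'UTR alone held 56.8% ± 0.206 (SD, n = 2) of their tags, coding sequence (CDS) alone 24.3% ± 0.705, and clusters with both of these labels 13.7% ± 0.564. Introns held 2.04% in replicate 1 and 1.96% in replicate 2. Over all genes the same shares were 47.1% ± 0.358 in 3'UTRs, 10.1% ± 0.178 in CDS and 18.9% ± 0.539 in introns. The members' pooled CDS share was higher and their pooled intron share lower than those of all genes in both replicates. The SD covers only the 2 libraries and not the variation between genes, so the difference between gene sets was not tested. The pooled intron share of all genes is not that of a typical gene, since the median intron share over the 3074 genes with more than 100 tags was 0 and the 90th percentile 66.3%. Against that median, ATP13A3 with 2.55%, ATP2B1 with 2.31%, ATP11B with 2.18% and ATP2C1 with 16.6% lay above, and the other 4 members had no intron cluster of at least 10 tags. Without ATP13A3 the members' shares were 51.8% in 3'UTRs and 1.47% in introns.

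Within the set the location differed from gene to gene. With the same minimum of 10 tags, 3'UTR clusters had 62.3% of the tags in ATP13A3, 65.0% in ATP2B1, 67.05% in ATP1B1, 57.7% in ATP11B and 48.8% in ATP2C1. In ATP2A2 it was 25.4%, because 41.4% of the tags of this gene lay in clusters labelled as both CDS and 3'UTR. ATP2B4 and ATP11A had 100% of such tags in 3'UTRs. Across the 3074 genes with more than 100 tags, the median 3'UTR share was 67.5%, the median CDS share 5.65% and the 90th percentile of the CDS share 34.0%. The CDS share was 24.97% in ATP13A3, 25.3% in ATP2B1, 26.1% in ATP11B, 28.4% in ATP2C1, 32.2% in ATP2A2 and 11.7% in ATP1B1. All of these lay above that median but inside the 90th percentile. ATP2B4 and ATP11A, with a CDS share of 0, lay below the median.

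Among genes of at least 1000 tags, ATP2B1 had the location profile closest to that of ATP13A3. Likeness was measured as the summed absolute difference of the percents of tags over 14 location classes, among 650 genes of at least 1000 tags. It came to 6.82 percentage points for ATP2B1, 10.4 for CAPRIN1 and 10.9 for STAG2, against a median of 64.1. ATP11B, ATP2C1, ATP2B4 and ATP11A had fewer than 1000 tags and were not compared. ATP11B, with 963 tags, had a similar profile, with 57.7% in 3'UTRs, 26.1% in CDS and 2.18% in introns.

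**Figure D2:**
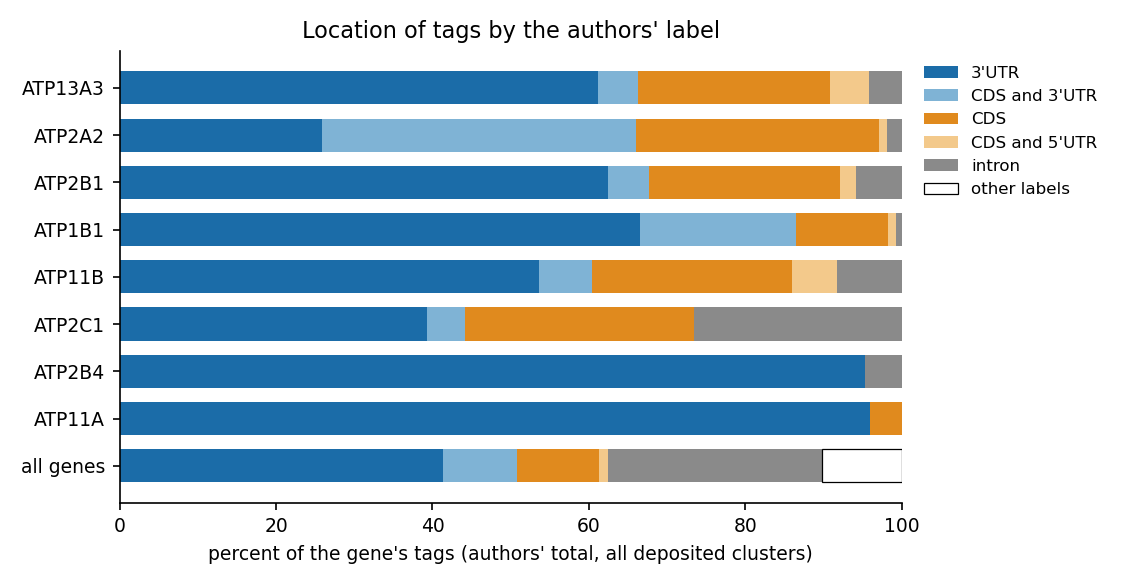
Percent of each gene's tags, by the authors' total over all deposited clusters, that lay in clusters of each location label, with all genes pooled in the lowest bar. Introns took 4.17% of the tags in ATP13A3 and 26.5% in ATP2C1, against 27.5% in all genes pooled, and ATP2A2 differs from the rest by its large share in clusters labelled as both CDS and 3'UTR.

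The 3'UTR of ATP13A3 was covered by a single cluster. It lay at chr3:195604693-195607785 on the minus strand (hg18, positions as listed) and held 6614 tags, 1387 in replicate 1 and 5227 in replicate 2. At 3092 nt it was the longest of the 38634 clusters labelled as 3'UTR alone, and it held the most tags of them, ahead of a cluster of 5651 tags. Its length came to 95.4% of the 3242 nt annotated for this 3'UTR. Its density of 2.14 tags per nt ranked 62nd, against a median of 0.153, so its size owed much to its length. It was separated by 3 nt from a cluster of 544 tags at 195607788 to 195608137 that was labelled as CDS and 3'UTR. Merged, the pair spanned 3444 nt and its 7158 tags made up 66.2% of the gene's total.

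The coding sequence of ATP13A3 was also tagged over most of its length. There were 30 clusters in CDS alone, which together measured 88.6% of the 3771 nt of annotated coding sequence. They held between 5 and 260 tags with a median of 74, and 18 of them held at least 50. Over all genes the median CDS cluster held 9 tags. The largest, at chr3:195631692-195631803 on the minus strand, had 56 replicate 1 tags and 204 replicate 2 tags. A further 4 clusters labelled as CDS and 5'UTR held 540 tags. The largest of these, of 235 tags at 195621892 to 195621987, lay between CDS clusters. No cluster was labelled as 5'UTR alone, although the annotated 5'UTR measures 525 nt. The 45 intron clusters were many but small, with a median of 8 tags, and the largest held 36 tags at 195614701 to 195614818. It was also the largest intron cluster of the 8 genes.

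The 3'UTR of ATP2B1 carried a similar share of tags but in pieces. It had 10 clusters labelled as 3'UTR alone, of 95 to 613 tags, with a median gap of 9.5 nt between neighbours when the cluster at the stop codon was included. Their summed length came to 108% of the 2935 nt annotated, so a part of them lay outside the 3'UTR of the reference transcript. The largest, at chr12:88507466-88508186 on the minus strand, held 613 tags by the authors' total, with 117 in replicate 1 and 498 in replicate 2. That was 15.3% of the gene's tags, against 61.2% for the largest cluster of ATP13A3. The largest cluster held a median of 20.7% of the tags over 648 genes with more than 1000 tags.

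ATP2A2 was tagged most strongly in and just past 1 of its 2 clusters labelled as both CDS and 3'UTR. The cluster at chr12:109268385-109269313 (plus strand), which spans the labels CDS and 3'UTR, held 1613 tags, 339 in replicate 1 and 1274 in replicate 2. It was followed after 3 nt by a 3'UTR cluster of 545 tags in 190 nt. The remaining 3'UTR clusters of this gene were far lower, and the median of all 24 was 14.5 tags. The most distal, at 109272790 to 109273286, held 137 tags, 24 in replicate 1 and 113 in replicate 2. CDS clusters numbered 18, all with at least 16 tags, and measured 83.8% of the annotated coding length.

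ATP1B1 had few and deep clusters. Its 5 clusters at the 3' end were closer together than 50 nt and merged into a region of 1423 nt with 2427 tags, 86.6% of the gene's tags. The largest was the most distal, at chr1:167368407-167368583 on the plus strand, where 176 nt held 780 tags, 176 in replicate 1 and 604 in replicate 2. The median cluster of this gene held 99 tags, the highest of the 8. Introns had 3 clusters with 21 tags in all.

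ATP2C1 carried tags at separate 3' ends. Its largest 3'UTR cluster lay at chr3:132203229-132203529 on the plus strand with 116 tags, 25 in replicate 1 and 91 in replicate 2. Another, of 33 tags, ended 14678 nt further downstream at 132217956 to 132218207. ATP2C1 also had the largest intron share of the 8 genes, 27.6% ± 3.71 (SD, n = 2) of all its tags in 21 intron clusters. These clusters held between 5 and 16 tags, and with 10 tags required only 5 remained, with 16.6% of the tags. Some of them lay between the separate 3' ends, such as those of 12 tags at 132205292 to 132205408 and 15 tags at 132205514 to 132205621. Which isoform these tags came from was not tested.

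The flippase ATP11B had a 3'UTR cluster of 263 tags at chr3:184118950-184119582 on the plus strand, 56 in replicate 1 and 207 in replicate 2. It had 20 other 3'UTR clusters and 19 CDS clusters, the latter with a median of 14 tags. ATP11A and ATP2B4 differed from the other 6 genes, as their tags were almost confined to the 3'UTR. ATP2B4 had 16 clusters in its 3'UTR, none in CDS and 1 in an intron. ATP11A had 14 clusters in its 3'UTR, 1 of 6 tags in CDS and none in introns. The largest clusters of these genes held 26 tags in ATP2B4 and 18 in ATP11A, and the listing minimum of 5 tags per cluster hides lower coverage of their coding sequence.

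**Figure D3:**
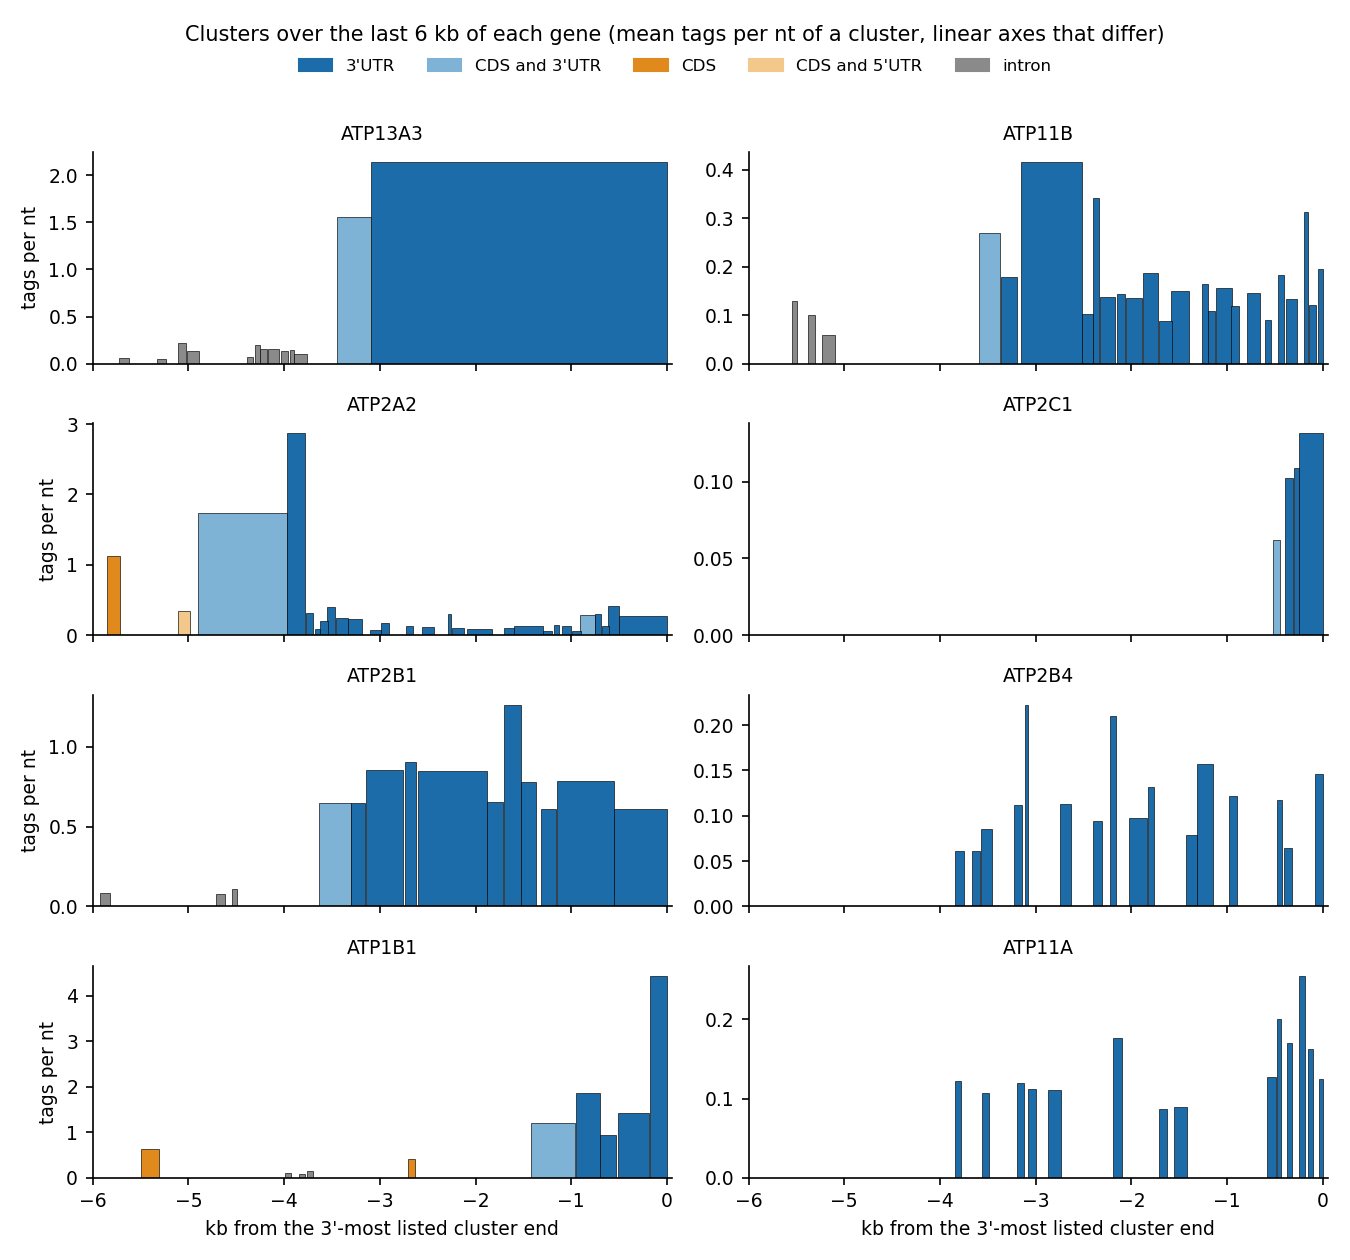
Tags per nt of each cluster over the last 6 kb of each gene, measured from the 3'-most end of its listed clusters, with colours for the location label and linear vertical axes that differ between genes. ATP13A3 shows a single block of 2.14 tags per nt, ATP2B1 a row of adjoining clusters, and ATP1B1 its highest density at the very end. ATP2A2 peaks about 4 kb from the end, at 2.87 tags per nt in a 3'UTR cluster next to one labelled as CDS and 3'UTR. The larger 3' end of ATP2C1 lies outside the window.

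Tags per kb of annotated region were compared within each gene, since genes differ in RNA level. The lengths are those of the reference transcript, which other isoforms can exceed. In ATP13A3 the 3'UTR had 2040 tags per kb, CDS 704.6 and introns 5.87. The 3'UTR density was 2.92 ± 0.0615 times (SD, n = 2) that of CDS. The ratio was 3.15 ± 0.0733 in ATP2B1, 4.45 ± 0.0518 in ATP1B1, 2.08 ± 0.108 in ATP11B and 2.21 ± 0.237 in ATP2C1, above 1 in both replicates in each. In ATP2A2 it was 0.593 ± 0.0561, below 1 in both, but 1.52 ± 0.173 when clusters labelled as CDS and 3'UTR were counted with the 3'UTR. The direction in ATP2A2 thus rests on how clusters labelled as CDS and 3'UTR are counted. In ATP11A the ratio of 14.1 ± 5.45 rests on a CDS cluster of 6 tags, and ATP2B4 had no CDS cluster.

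Introns were tagged at far lower density than CDS in all 6 genes with clusters of both kinds. The CDS density was 115 ± 10.1 times (SD, n = 2) that of introns in ATP13A3, 121 ± 26.9 in ATP2B1, 306 ± 93.9 in ATP2A2, 421 ± 32.6 in ATP1B1 and 98.1 ± 25.3 in ATP11B. It was lowest in ATP2C1, at 38.6 ± 10.1. Only clusters of at least 5 tags were listed, and the median intron cluster of the 8 genes held 7 tags. Sparser intron tags are thus left out, and the ratios may be too high. Per cluster, mean log2 tags were 1.54 ± 0.07 (SD, n = 2) higher in 3'UTR clusters than in intron clusters of the 8 genes with at least 10 tags, a difference above 0 in both replicates. CDS clusters were not lower than 3'UTR clusters on this scale. By the authors' total, mean log2 tags were 5.31 in 3'UTR, 5.43 in CDS and 3.77 in intron clusters. Over all genes they were 4.82, 4.28 and 4.02.

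**Figure D4:**
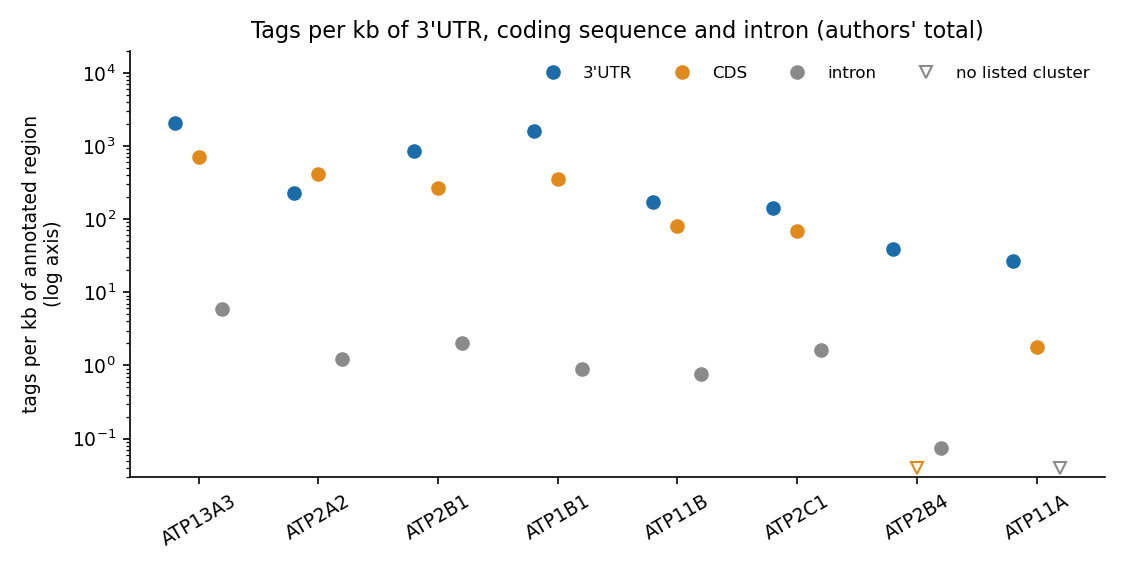
Tags per kb of annotated 3'UTR, CDS and intron for each gene by the authors' total over all deposited clusters, on a log axis; open triangles mark regions with no listed cluster. The 3'UTR lies above CDS in 6 of the 7 genes with clusters in both, the exception being ATP2A2, and introns lie below CDS in the 6 genes with clusters in both.

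The base composition of the annotated transcripts, which the choice of genes did not use, was also described. U made up 37.3% of the ATP13A3 3'UTR, higher than in 94.0% of 18641 annotated genes. It made up 38.7% in ATP2C1, 36.9% in ATP1B1, 35.5% in ATP2B1, 33.6% in ATP11B and 31.7% in ATP2B4, against a median of 29.5% over all genes. ATP2A2 with 28.9% and ATP11A with 25.3% were below the median. The most U-rich 3'UTR of the 8, that of ATP2C1, was among the less densely tagged, and the least U-rich, that of ATP11A, had the lowest density. U content was higher in the 3'UTR than in CDS in each of the 8 genes, by 2.15 percentage points in ATP11A to 12.7 in ATP1B1. This is also so for the medians over all annotated genes, 29.5% in 3'UTRs and 21.6% in CDS. The CDS of ATP13A3, at 30.7% U, was higher than in 97.7% of genes.

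The replicates were compared cluster by cluster. Across the 206 member clusters with at least 10 tags, which share library and depth, Pearson's r of log2 tags was 0.914 and Spearman's rho 0.841. No member cluster passed the test of its split between the libraries against the replicate 1 share of 22.3% over all tags (two-sided exact binomial test with Benjamini-Hochberg adjustment over 233546 clusters). The count was 0 of 357, with 14 at an unadjusted p below 0.05, and 0.0111% of all clusters passed. It is a comparison of the libraries, not of conditions.

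Summed over each gene, 1 of the 8 passed, against 1.52% of all 7712 genes in either direction and 0.661% with a lower share in replicate 1. In ATP2A2 replicate 1 held 19.6% of the tags (Wilson 95% interval 18.4 to 20.8) against 22.04% over all genes. The share over all clusters of at least 100 tags was 20.8%, at the upper end of that interval. Against 22.04%, ATP2A2 had an adjusted p of 0.0143 in the exact binomial test. The share was 20.9% (20.1 to 21.6) in ATP13A3, with an adjusted p of 0.108 in the same exact test. The call in ATP2A2 was lost in clusters of at least 10 tags and with a beta-binomial model. These intervals cover counting error only.

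**Figure D5:**
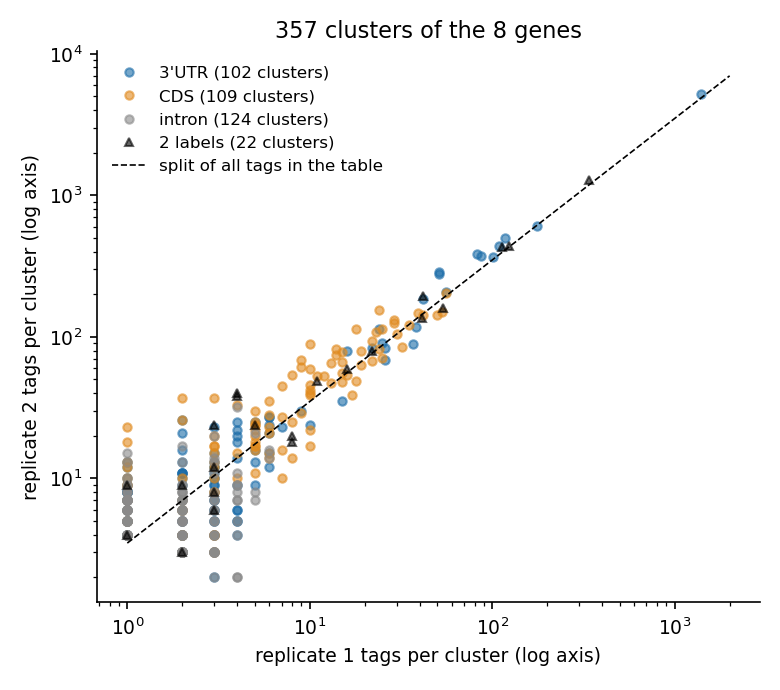
Replicate 1 tags against replicate 2 tags of the 357 clusters on log axes, coloured by location label, with the split of all tags in the table as a dashed line. The clusters follow the line over their whole range, and intron clusters lie at its lower end with 36 tags at most.

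Other genes of the P-type ATPase family and its accessory subunits were counted from a list of 44 symbols. Clusters were listed for 10 of them, and 6 of these had more than 100 tags in clusters of at least 10 tags, against 39.9% of all genes. Without replicate 2 that count was 1. The limits were not scaled to the lower depth of replicate 1, and the share of all genes was not counted there. TMEM30A, the obligate partner subunit of most flippases, had 6445 tags and ranked 41st. Of these, 5328 lay in 1 cluster of 2578 nt across CDS and 3'UTR at chr6:76020074-76022652 on the minus strand, 1030 in replicate 1 and 4298 in replicate 2. Its level of 1.38 ± 0.151 tags per 1000 (SD, n = 2) was above those of the flippases ATP11B and ATP11A in both replicates.

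ATP1B3, another beta subunit of the sodium pump, had 151 tags. The lipid pumps ATP10D and ATP8B1 had 618 and 351 tags, with 79.8% and 89.7% in 3'UTRs.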

How the data were processed

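HITS-CLIP was carried out on 2 replicates of 1 group. The authors digested the RNA in part, added an A-tail, primed cDNA with oligo(dT) bearing degenerate barcoded linkers, and used Galaxy to reduce reads to unique tags and build clusters from those that overlap. The submitters' processing notes name Novoalign and hg18. The deposited values are counts of unique tags per cluster, 1 column per replicate and a total, with the authors' location label. Clusters below the listing minimum were not used here, so column sums are not library depths.

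Clusters were selected by gene symbol and analysed in Python 3.11.15 with pandas 2.3.3 and SciPy 1.17.1. Of the 357 clusters, 0 overlapped their gene in GENCODE on GRCh37, so no coordinate or sequence was taken from a reference. GENCODE v44 on GRCh37 gave only the lengths and base composition of MANE Select transcripts. The replicate split was tested with an exact binomial test and Benjamini-Hochberg adjustment. It was checked only on counts simulated from the same binomial model, so the check does not cover extra variation between libraries. Nothing in the labels says that the replicates are separate cultures. The p-values of the exact test cover counting error only, not variation between libraries or cultures. The members and lists were chosen with earlier results of these data known. Named were the 8 members, listed family genes above 100 tags, rank neighbours and nearest profiles of ATP13A3, and the largest clusters, except for items that are not reported here. Alternatives were the tag minimum, each library alone, the replicate sum, every location label, length scaling and other expected shares.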

Additional observations from a re-analysis of the deposited data

Results flagged for a closer look

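Clusters without a gene symbol past the 3' end of a member, on its strand and within 10 kb, were outside the comparisons above. Past ATP2B1 there were 45 such clusters with 799 tags by the authors' total, which equals 19.9% of the tags listed under the gene. They had 0.182 tags per 1000 in replicate 1 and 0.181 in replicate 2, a mean of 0.181 ± 0.00116 (SD, n = 2). The nearest, chr12:88505260-88505585 on the minus strand, lay 4 nt from the last ATP2B1 cluster and was also the largest, with 34 replicate 1 tags and 106 replicate 2 tags. The 11 clusters within 2000 nt held 440 tags, and the farthest lay 9610 nt away. Past ATP2C1 there was 1 cluster of 6 tags, and past the other 6 genes none was listed. Both are above the 3 tags that a count of 0 allows, but the table lists only clusters of at least 5 tags. Over the span of each of the 8 genes, 0 clusters were listed on the opposite strand.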

How the results depend on the processing

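Of 58 alternatives, 27 left the value within its limit (1 SD of the replicates, or 1.5 times for a count) and 31 moved it. Among these values, the one with a direction, the log2 difference between 3'UTR clusters and those in introns, stayed above 0. The ATP2A2 ratio of 3'UTR to CDS density did turn with the label choice, from 0.593 to 1.52. The tag minimum moved the shares of the 8 genes. The 3'UTR share of tags was 56.7% at 10 tags, 55.4% in all deposited clusters and 59.0% at 30 tags, and the intron share 1.97%, 4.40% and 0.172%. The ATP13A3 share of member tags was 45.4% and 48.6%, and the share of ATP13A3 tags in its largest cluster 61.2% and 65.1%, under the same alternatives, against 46.6% and 62.3% at 10 tags. At 30 tags the difference in mean log2 tags was 2.07. With every label counted, the 3'UTR share was 70.2% and that difference 1.72, and it was 1.03 per nt. ATP13A3 held 27.9% of member tags per kb of clusters, and its merged cluster 67.0% of its tags.

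Chosen after the data were seen were the values without ATP13A3 (51.8% in 3'UTRs, 1.47% in introns) and per kb of annotated mRNA (ATP13A3, 35.0% of member tags). With each replicate left out, ATP13A3 had 2092 to 8368 tags, 4 to 6 members and 1 to 6 family genes were over 100 tags, and the shares were 57.1% to 60.3% in 3'UTRs, 0 to 1.23% in introns, 46.6% to 50.5% for ATP13A3 and 62.5% to 66.3% for its largest cluster. The lower of each pair of counts came from replicate 1 alone, as did the intron share of 0 and the higher value of the other shares. Without replicate 1 the log2 difference was 1.38, and without replicate 2 no intron cluster reached 10 tags. Of the genes, 2 passed the split test with the median ratio and 2 with clusters that sum to the total, ATP2A2 and ATP13A3 in each, but 0 with a beta-binomial model and 0 with at least 10 tags. No paired analysis was possible because only 1 group was sampled. Replicate 1 depth limits ATP2B4 and ATP11A most.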

Other observations

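The rotary ATPases share the name but not the mechanism of the P-type pumps. Symbols starting ATP6V or ATP6AP were taken as the list for the V-type proton pump, which acidifies lysosomes. Of its 14 listed genes, 7 had more than 100 tags in clusters of at least 10 tags, or 50% against 39.9% of all genes. ATP6V1C1 was highest at 881 tags, with ATP6V0A2 at 809. Symbols starting ATP5 were taken for the mitochondrial F-type ATP synthase. Of its 12 listed genes, 1 passed that limit (8.33%), ATP5B with 119 tags, and ATP5L followed with 91. Chosen by symbol alone, the lists hold entries such as ATP5EP2, ATP5J2-PTCD1 and ATP6V1G2-DDX39B, and not every entry need encode a pump subunit. The median over genes with such clusters was 194 tags in the V-type list and 51.5 in the F-type list, against 127 over all genes, 351 in the P-type family list and 1873 over the 8 members, which were chosen with their tags known. These values are not set per length, and the lists are described without a test.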
